A study of Mus musculus with 11 samples.

Results

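The genes described here are 10 mouse genes of NF-kappaB signalling and inflammation: the cytokine genes Tnf, Il1a, Il1b and Lif, the inhibitor and feedback genes Nfkbia, Nfkbiz and Tnfaip3, the subunit gene Relb, and the target genes Ptgs2 and Icam1. They were taken as a fixed list of names, and their 11 probes were found through the RefSeq accessions on the arrays. The array named 20145 genes, of which 14068 were measured well enough to be tested, and 9 of the 10 genes of the list were among them. Il1a was the exception: its probe was not well above background on any of the 11 arrays.

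The arrays held RNA from mammary outgrowths. Primary mouse mammary epithelial cells were infected with a lentivirus carrying a control hairpin against luciferase (shLUC) or a hairpin against Ror2 (shROR2), which encodes a receptor tyrosine kinase that binds Wnt5a, and were injected in Matrigel to grow into outgrowths. Luminal cells, which line the ducts, and basal cells, the contractile outer layer, were then sorted by their surface CD24 and CD29, so that the groups were luminal shLUC (3 arrays), luminal shROR2 (2 arrays), basal shLUC (3 arrays) and basal shROR2 (3 arrays). All 4 groups thus went through infection, transplantation and sorting, and a further luminal shROR2 sample is not analysed here. The labels speak of biological replicates but do not say which arrays share an outgrowth or an animal, so the p-values measure the spread between these samples. They give no strain or age for the mice. The shLUC groups are the controls, and signals are listed in the order of the array numbers.

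NF-kappaB is a family of dimeric transcription factors that inhibitor proteins hold in the cytoplasm until cytokines such as TNF and interleukin-1, or microbial products, trigger the destruction of the inhibitor. The freed dimers switch on genes for cytokines, adhesion molecules and enzymes of inflammation, and also genes for their own inhibitors, so that the response limits itself. In the mammary gland the pathway is known for roles in ductal growth, in alveolar development and in the involution that follows lactation, where LIF acts through STAT3.

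A kappaB site is the DNA element that these dimers bind, and promoters of 4 of the genes are printed to show where its consensus did and did not occur. RefSeq promoter windows (build GRCm38.p6), which reach from 250 bases before the start of a gene to 50 bases after it, were found for 8 of the 10 genes, not for Nfkbiz and Relb. Each is written in the direction of transcription, in lower case, with every match to the kappaB consensus, on either strand, in capitals. Tnf is shown as the gene with the smallest p in the basal hairpin comparison, and Nfkbia, Tnfaip3 and Lif as the tested genes whose windows held a match.
Tnf (chr17:35201958-35202257, minus strand): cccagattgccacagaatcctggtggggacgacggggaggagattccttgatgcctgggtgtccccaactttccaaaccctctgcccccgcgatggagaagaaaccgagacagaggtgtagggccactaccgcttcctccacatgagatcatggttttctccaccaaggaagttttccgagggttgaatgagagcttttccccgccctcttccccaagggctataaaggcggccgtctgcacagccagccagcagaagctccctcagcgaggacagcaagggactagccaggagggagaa
Nfkbia (chr12:55492598-55492897, minus strand): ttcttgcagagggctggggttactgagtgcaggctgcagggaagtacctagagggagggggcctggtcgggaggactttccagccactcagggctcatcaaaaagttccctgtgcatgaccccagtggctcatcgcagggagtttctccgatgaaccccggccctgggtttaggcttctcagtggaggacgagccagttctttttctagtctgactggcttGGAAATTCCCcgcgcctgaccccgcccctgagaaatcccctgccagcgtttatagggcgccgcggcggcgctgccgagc
Tnfaip3 (chr10:19015361-19015660, minus strand): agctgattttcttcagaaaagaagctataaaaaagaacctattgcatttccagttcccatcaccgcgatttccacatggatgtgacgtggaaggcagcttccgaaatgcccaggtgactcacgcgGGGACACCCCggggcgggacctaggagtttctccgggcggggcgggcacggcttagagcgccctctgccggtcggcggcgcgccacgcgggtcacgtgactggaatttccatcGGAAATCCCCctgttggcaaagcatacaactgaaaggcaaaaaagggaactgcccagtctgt
Lif (chr11:4257318-4257617, plus strand): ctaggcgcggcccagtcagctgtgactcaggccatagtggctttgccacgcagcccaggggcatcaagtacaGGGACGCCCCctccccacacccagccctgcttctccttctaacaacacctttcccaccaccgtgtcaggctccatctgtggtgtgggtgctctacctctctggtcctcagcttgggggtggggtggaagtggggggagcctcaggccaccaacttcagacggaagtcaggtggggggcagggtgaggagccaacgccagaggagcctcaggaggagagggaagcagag
The match in Nfkbia, GGGAATTTCC on the opposite strand, lay from 29 to 20 bases before the start of the gene. Tnfaip3 held 2 matches, 1 of them GGGGATTTCC on the opposite strand at 12 to 3 bases before the start, and the other at 125 to 116 bases before it. A second RefSeq start of Tnfaip3 had a window without a match. The match in Lif lay from 178 to 169 bases before the start. The printed Tnf window held no match, nor did those of Il1a, Il1b, Ptgs2 and Icam1, which says only that these letters are not in those 300 bases. Of all 32851 RefSeq promoter windows, 8.46% held a match. The AP-1 motif TGANTCA, which reads the same on both strands, was in the windows of Tnfaip3, Lif and Il1a and in 7.81% of all windows. The cyclic AMP response element TGACGTCA was in none of the windows of these genes and in 1.79% of all. TATAAA, searched on both strands, was in the windows of Tnf, Il1a, Il1b, Nfkbia, Tnfaip3 and Icam1 and in 13.6% of all, and in Tnf it lay from 29 to 24 bases before the start. None of these matches overlapped a kappaB match.

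The values are the signals that the scanner software gave after background subtraction, in arbitrary units of brightness. For the tests they were put on the log2 scale and set relative to the 75th percentile of each array, and differences and their standard errors (SE) are log2 differences from limma. A gene was said to have risen or fallen where its adjusted p (Benjamini-Hochberg, over all 29429 features tested) was below 0.05. Probes differ in how brightly they report a transcript, so levels are compared between arrays and not between genes.

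Some properties of the arrays touch all results. The sort was borne out by its markers: all 8 luminal markers were lower and 7 of 8 basal markers higher in basal than in luminal shLUC cells. Of all features, 13.0% were lower and 13.8% higher in that comparison. Ror2 itself gave signals of 3.03 to 16.8, well above background only on the array labelled basal shROR2 1, so its probe does not check the hairpin labels, and the direction of every hairpin difference rests on the labels. The 3 basal shROR2 arrays were less alike (correlations of 0.941 to 0.953) than the arrays of the other groups (0.976 to 0.983), and the median SD of a feature within the group was 0.345 against 0.143 to 0.188. The arrays lay on 2 slides, each with 1 or 2 arrays of every group. In bulk RNA, fewer cells of a type and less RNA per cell cannot be told apart.

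Basal and luminal cells differed in most of these genes. In shLUC outgrowths, basal cells had lower signals for Tnf, Il1b, Nfkbia, Nfkbiz, Tnfaip3 and Relb and higher signals for Ptgs2 and Icam1, with Lif as the 1 tested gene that did not pass. That is 2 of 9 genes higher against a background of 13.8% of all features, and 6 of 9 lower against 13.0%. In shROR2 outgrowths 2 of 9 were higher (10.6% of all features) and 4 of 9 lower (12.3%). The median difference of the 9 genes was -0.85 in shLUC and -0.78 in shROR2 outgrowths, beside medians over all features of -0.06 and -0.08.

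The hairpin comparison in basal cells gave 1 change, in Tnf, which was lost in 5 of 11 alternative fits and in 8 of 11 fits without 1 array. Tnf was higher in basal shROR2 than in basal shLUC cells, so that 1 of 9 genes rose, where 0.374% of all features did, and 0 of 9 fell, where 0.574% did. The 3 arrays of each group did not overlap for 4 of the 9 genes, Tnf, Nfkbia, Tnfaip3 and Ptgs2, against 18.5% of all features, and these 4 were also those with an unadjusted p below 0.05. Such a p was found for 4644 of all 29429 features. The median of the 9 genes was 0.30, and that of all features was -0.05.

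In luminal cells, limma called none of the 9 genes, either higher (0.00340% of all features, which is 1 feature) or lower (0%), and none had an unadjusted p below 0.05. Such a p was found for 1633 of all 29429 features. The arrays of the groups did not overlap for 1 of 9 genes, Tnf, against 29.0% of all features in this comparison of 2 with 3 arrays. The median of the 9 genes was 0.06, beside 0.00 over all features. When the hairpin difference in basal cells was set against that in luminal cells, limma called 0 of 9 genes higher (0% of all features) and 0 of 9 lower (0%). An unadjusted p below 0.05 was found for 1 gene, Tnf, and for 2443 of all 29429 features. No gene of the list was therefore shown to respond differently in the basal and luminal compartments.

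**Figure D1:**
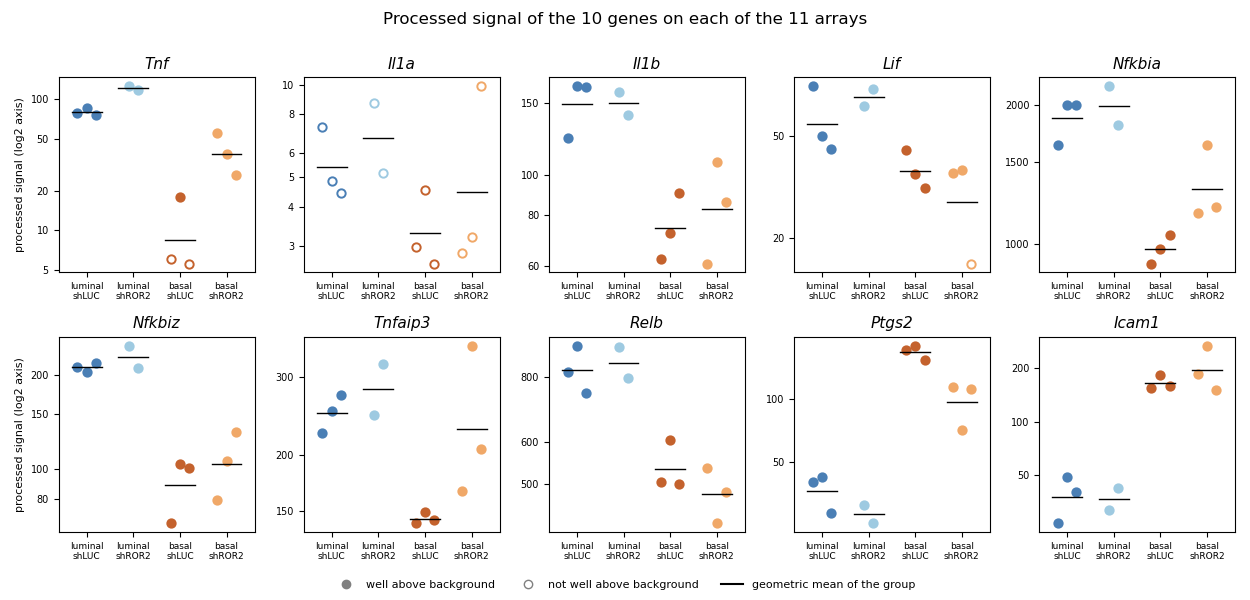
Processed signal (log2 axis, arbitrary units) of each of the 10 genes, 1 panel a gene, on the arrays of the 4 groups. Each point is an array, hollow where the probe was not well above background, and the bar is the geometric mean of the group. Tnf, Il1b, Nfkbia, Nfkbiz, Tnfaip3 and Relb sit lower in basal than in luminal shLUC cells, Ptgs2 and Icam1 sit higher, and the Tnf points of basal shROR2 all lie above those of basal shLUC.

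Tnf encodes tumour necrosis factor, a cytokine that both activates NF-kappaB and is made in response to it. Its signals were 79.2, 86.4 and 75.5 for the luminal controls and 126 and 117 for luminal shROR2. In basal shLUC cells they were 6.03, 17.9 and 5.57, and only the array at 17.9 was well above background. In basal shROR2 cells they were 55.3, 38.0 and 26.6, all of them well above background. The groups did not overlap and stood in the order luminal shROR2, luminal shLUC, basal shROR2 and basal shLUC.

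Tnf rose in basal shROR2 against basal shLUC cells by 2.26 ± 0.39 (SE, 3 arrays a group, 95% interval 1.37 to 3.15), with a limma adjusted p of 0.0423. That is a 4.79-fold difference, whose size depends on 2 arrays near background in the control group. With normexp background correction of the raw signals the difference was 0.54 (adjusted p = 0.0259). On the values the authors tabulated it was 0.51 (adjusted p = 0.0347). The normexp correction adds an offset of 50 to every signal, which makes log2 differences of dim probes smaller. Within the first slide (2 arrays a group) the difference was 2.75, and within the second (1 array a group) 1.27. With the slide as a block it was 2.26 with an adjusted p of 0.058, which ends the call.

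The call of Tnf was also lost in other fits. The adjusted p was 0.0698 with no filter on dim probes, 0.0849 with the replicate number as a block, 0.284 when only the groups compared were fitted, and 0.175 when each group had its own array weight. Leaving out an array of luminal shLUC gave 0.0833 (array 1), 0.0802 (array 2) and 0.0769 (array 3), and leaving out luminal shROR2 gave 0.0775 (array 1) and 0.0782 (array 2). Without basal shLUC 1 the difference was 2.04 (0.135), without basal shLUC 3 it was 1.99 (0.127), and without basal shROR2 2 it was 2.27 (0.0601). Without basal shROR2 1, the array on which Ror2 was well above background, the difference was 1.99 with an adjusted p of 0.0476. In every one of these fits Tnf stayed higher in basal shROR2 cells.

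In luminal cells Tnf did not pass, although both shROR2 arrays lay above all 3 shLUC arrays: the difference was 0.56 ± 0.44 (adjusted p = 1, 95% interval -0.44 to 1.55). The SE rests on 1 spread of Tnf shared by the 4 groups, not on the luminal arrays alone. The SD of the scaled values was 0.11 in luminal shLUC and 0.02 in luminal shROR2 cells. It was 0.83 in basal shLUC and 0.52 in basal shROR2 cells. The hairpin difference in basal cells exceeded that in luminal cells by 1.70 ± 0.59, which did not pass (adjusted p = 0.511). Tnf fell in basal against luminal shLUC cells by 3.31 ± 0.39 on the log2 scale (adjusted p = 0.000297). In shROR2 outgrowths the basal cells were again lower, with a difference of -1.61 ± 0.44 (adjusted p = 0.0288). This last call was lost without luminal shROR2 1 (0.133), luminal shROR2 2 (0.119), basal shROR2 2 (0.0536) or basal shROR2 3 (0.0674), and also with no filter (0.05), the replicate number as a block (0.0532), only the groups compared (0.0557) and array weights (0.068). On the authors' values the compartment differences of Tnf were smaller, -0.97 in shLUC and -0.77 in shROR2 outgrowths.

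Markers of leukocytes, which are rich sources of Tnf, moved in the same direction in basal cells. Of 14 leukocyte markers tested, 12 had a difference above 0 between basal shROR2 and basal shLUC cells, and 4 rose: Tyrobp by 1.51 (adjusted p = 0.0126), Laptm5 by 1.77 (0.0275), Fcer1g by 1.06 (0.034) and Aif1 by 0.96 (0.0492). The share over all features that rose in this comparison was 0.374%. Ptprc, the pan-leukocyte marker, differed by 0.03, Csf1r by -0.01 and Itgam by 0.12, none of which passed. In luminal cells 12 of 14 were above 0 as well and 0 rose by limma, with a median of 0.69 beside 0.64 in basal cells.

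The summed signal of the 15 leukocyte markers on the array, relative to the 75th percentile, was 417 to 496 in basal shLUC, 505 to 516 in basal shROR2, 495 to 523 in luminal shLUC and 499.8 to 526 in luminal shROR2. Itgam and Csf1r carried most of that sum. Without them, a choice made after seeing the data, it had a lowest value of 9.87 and a median of 10.2 in basal shLUC, and was 17.4 to 23.5 in basal shROR2, 37.8 to 41.4 in luminal shLUC and 43.6 to 45.8 in luminal shROR2. Cd14, which was lower in basal than in luminal shLUC cells (-3.00, adjusted p = 9.45e-07), carried much of the luminal values. Without it as well, also chosen after seeing the data, the sum of the other 12 markers was 6.86 to 7.94 in basal shLUC, 13.5 to 18.2 in basal shROR2, 14.7 to 15.1 in luminal shLUC and 24.4 to 24.6 in luminal shROR2. Basal shROR2 overlapped luminal shLUC in this sum and in that of all 15 markers, and lay below it in the sum without only Itgam and Csf1r. The part of leukocytes in the Tnf result was not tested.

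Genes that sorting and dissociation can induce moved with the basal hairpin comparison as well. All 11 tested were above 0 and 6 rose, namely Hspa1a (1.61), Btg2 (1.08), Atf3 (1.03), Fosb (0.86), Egr1 (0.85) and Fos (0.61). The share over all features that rose was 0.374%. In luminal cells all 11 were above 0 as well and 0 rose by limma, with a median of 0.27 beside 0.61 in basal cells. Their summed signal was 396 to 415 in basal shLUC, 639 to 679 in basal shROR2, 578 to 598 in luminal shLUC and 705 to 752 in luminal shROR2. Of 8 endothelial markers, 2 rose (Emcn and Plvap), and their sum was 21.8 to 26.6 in basal shLUC against 41.2 to 47.7 in basal shROR2 cells. In luminal cells 7 of 8 endothelial markers were above 0 and 0 rose, with a median of 0.92 beside 0.91 in basal cells. No fibroblast marker passed in either hairpin comparison, with 6 of 8 above 0 in basal and 7 of 8 in luminal cells. The part of either list in the Tnf result was not tested.

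**Figure D2:**
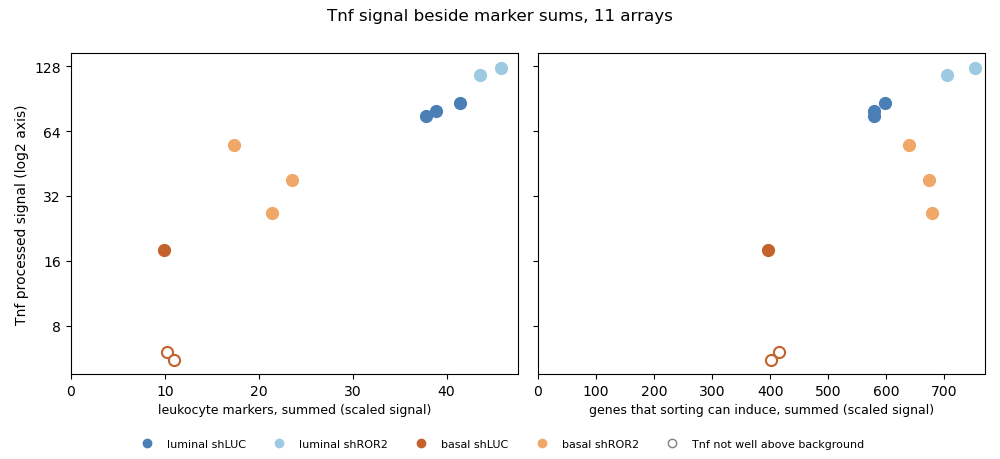
Tnf processed signal (log2 axis, arbitrary units) on each of the 11 arrays against the summed scaled signal of 13 leukocyte markers (left, without Itgam and Csf1r) and of 11 genes that sorting and dissociation can induce (right). Points are arrays, coloured by group and hollow where Tnf was not well above background. The basal shLUC arrays lie lowest on every axis, with a median leukocyte sum of 10.2. In basal shROR2 cells the array with the highest Tnf signal, 55.3, has the lowest leukocyte sum of its group, 17.4. That order depends on leaving out Itgam and Csf1r, a choice made after seeing the data. With all 15 leukocyte markers the same array has the highest sum of its group, 516.

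Il1b encodes interleukin-1 beta, a secreted cytokine that signals through the interleukin-1 receptor and the adaptor MyD88. Its signals were 123, 165 and 164 for the luminal controls, 159.8 and 140.4 for luminal shROR2, 62.4, 72.4 and 90.5 for the basal controls, and 60.9, 108 and 86.0 for basal shROR2. Every luminal array lay above every basal array, and the hairpin groups overlapped in each compartment. Il1b fell in basal against luminal shLUC cells by 1.07 ± 0.23 (adjusted p = 0.00895). In shROR2 outgrowths the difference was -0.81 ± 0.26, which just missed the threshold (adjusted p = 0.0556) and passed it without basal shLUC 3 (0.0472) or basal shROR2 2 (0.0237), with normexp (0.0314), on the authors' values (0.0288), with a stricter filter (0.0488) and with the replicate number as a block (0.0379). The hairpin differences were 0.24 ± 0.23 in basal cells (adjusted p = 0.676) and -0.03 ± 0.26 in luminal cells (adjusted p = 1).

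Il1a, which encodes the related cytokine interleukin-1 alpha, gave signals between 2.63 and 9.88 on the 11 arrays. The highest was on basal shROR2 3 and the lowest on basal shLUC 3. None was well above background, so no level, fold or test is given for Il1a.

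Lif encodes leukaemia inhibitory factor, a cytokine of the interleukin-6 family that signals through Lifr and gp130. Its signals were 78.8, 50.2 and 44.6 for the luminal controls, 66.1 and 77.0 for luminal shROR2, 44.1, 35.4 and 31.3 for the basal controls, and 36.0, 36.8 and 15.8 for basal shROR2. The last of these, on basal shROR2 3, was not well above background. Once scaled, the luminal and basal arrays overlapped in shLUC outgrowths and did not in shROR2 outgrowths. In shLUC outgrowths the difference of -0.68 ± 0.35 did not pass (adjusted p = 0.194), except with normexp (-0.31, adjusted p = 0.0439).

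Lif fell in basal against luminal shROR2 cells by 1.32 ± 0.39, with an adjusted p of 0.041. The call was lost with the slide as a block (0.0581), with no filter (0.0708), with only the groups compared (0.15), with array weights (0.0617) and without any of 8 arrays. Those were luminal shLUC 2 (0.0592) and 3 (0.0505), luminal shROR2 1 (0.12) and 2 (0.199), basal shLUC 1 (0.0502), 2 (0.058) and 3 (0.0579), and basal shROR2 3 (0.0591). Without that last array, the dim one, the difference shrank to -0.93. The hairpin differences of Lif, -0.32 ± 0.35 in basal and 0.31 ± 0.39 in luminal cells, did not pass (adjusted p = 0.707 and 1).

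Nfkbia encodes IkappaB-alpha, the inhibitor that holds NF-kappaB dimers in the cytoplasm and that NF-kappaB itself induces. Its signals were 1636, 2000.2 and 1999 for the luminal controls and 2194 and 1809.7 for luminal shROR2. In basal cells they were 906, 973 and 1046 with shLUC and 1165, 1634 and 1199 with shROR2. Basal shLUC arrays were the lowest of all, and the basal shROR2 arrays lay between them and the luminal arrays.

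Nfkbia fell in basal against luminal shLUC cells by 1.00 ± 0.16 (adjusted p = 0.00166). In shROR2 outgrowths the difference was -0.54 ± 0.18 (adjusted p = 0.058). That difference passed without basal shROR2 2, the array at 1634, where it was -0.69 (0.013), and with normexp (0.0251), quantile scaling (0.0411) and on the authors' values (0.0156). Between the hairpins, basal cells differed by 0.52 ± 0.16 with no overlap of the arrays, but this did not pass (adjusted p = 0.17). It was 0.31 within the first slide and 0.94 within the second. Luminal cells differed by 0.06 ± 0.18 (adjusted p = 1).

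Nfkbiz encodes IkappaB-zeta, a nuclear relative of the inhibitors that adjusts which NF-kappaB targets are transcribed. Its signals were 212, 205 and 219.6 for the luminal controls, 249 and 211 for luminal shROR2, 67.2, 104 and 101 for the basal controls, and 79.9, 106 and 132 for basal shROR2. Every luminal array lay above every basal array, and within each compartment the hairpin groups overlapped. Nfkbiz fell in basal against luminal cells by 1.31 ± 0.21 in shLUC (adjusted p = 0.00182) and by 1.09 ± 0.24 in shROR2 outgrowths (adjusted p = 0.0102). The second call was lost without luminal shROR2 1 (adjusted p = 0.0811) and with only the groups compared (0.0833). The hairpin differences were 0.30 ± 0.21 in basal cells (adjusted p = 0.535) and 0.08 ± 0.24 in luminal cells (adjusted p = 1).

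Tnfaip3 encodes a ubiquitin-editing enzyme that shuts down signalling from the TNF receptor and is itself an NF-kappaB target. Its signals were 224, 251 and 273 for the luminal controls, 246 and 321 for luminal shROR2, 141, 149 and 143 for the basal controls, and 166, 352 and 207 for basal shROR2. The basal shLUC arrays were closely grouped and lowest, while basal shROR2 2 gave the highest signal of all 11 arrays.

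Tnfaip3 fell in basal against luminal shLUC cells by 0.85 ± 0.25 (adjusted p = 0.0349). Leaving out any array of those groups ended this call, with adjusted p-values of 0.0684, 0.0866 and 0.102 without luminal shLUC 1, 2 and 3, and of 0.0814, 0.094 and 0.0767 without basal shLUC 1, 2 and 3, as did the fit with no filter (0.062). Basal and luminal shROR2 cells overlapped, with a difference of -0.24 ± 0.28 (adjusted p = 0.597). Between the hairpins, basal cells differed by 0.75 ± 0.25 without overlap, which did not pass (adjusted p = 0.2) and was 0.41 within the first slide and 1.43 within the second. In luminal cells the difference was 0.14 ± 0.28 (adjusted p = 1).

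Relb encodes the NF-kappaB subunit of the non-canonical branch, which lymphotoxin and CD40 trigger. Its signals were 819, 918 and 745 for the luminal controls, 911 and 798 for luminal shROR2, 504, 607 and 499 for the basal controls, and 536, 421 and 483 for basal shROR2. Luminal arrays lay above all basal arrays, with the hairpin groups overlapping in each. Relb fell in basal against luminal cells by 0.69 ± 0.13 in shLUC (adjusted p = 0.00456) and by 0.78 ± 0.15 in shROR2 outgrowths (adjusted p = 0.00492). The other Relb probe on the array gave differences of -0.62 ± 0.12 (adjusted p = 0.00401) and -0.88 ± 0.13 (adjusted p = 0.00126), in the same direction. With only the groups compared the shROR2 call of Relb was lost (adjusted p = 0.0802). The hairpin differences were -0.08 ± 0.13 in basal cells (adjusted p = 0.813) and 0.01 ± 0.15 in luminal cells (adjusted p = 1). With the other Relb probe every basal shROR2 array lay below every basal shLUC array, a difference of -0.17 ± 0.12 that did not pass (adjusted p = 0.511).

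Ptgs2 encodes the inducible cyclooxygenase, which makes the precursor of prostaglandins. Its signals were 40.4, 42.5 and 28.8 for the luminal controls, 31.4 and 25.8 for luminal shROR2, 170.3, 178 and 153 for the basal controls, and 114, 70.7 and 110.5 for basal shROR2. Basal arrays were all above luminal arrays, and all basal shROR2 arrays were below the basal shLUC arrays. Ptgs2 rose in basal against luminal cells by 2.12 ± 0.22 in shLUC (adjusted p = 0.000139) and by 1.81 ± 0.25 in shROR2 outgrowths (adjusted p = 0.000922). Both calls held in all other fits, although on the authors' values the differences were 1.08 and 0.79.

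Between the hairpins, Ptgs2 in basal cells differed by -0.71 ± 0.22, opposite in sign to Tnf, Nfkbia and Tnfaip3, and did not pass (adjusted p = 0.175). It was -0.50 within the first slide and -1.14 within the second. In luminal cells the difference was -0.40 ± 0.25 (adjusted p = 1) with overlapping arrays.

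Icam1 encodes an adhesion molecule to which leukocytes bind through their integrins. Its signals were 26.8, 48.9 and 40.0 for the luminal controls, 31.7 and 42.4 for luminal shROR2, 156, 183 and 159 for the basal controls, and 187, 269 and 151 for basal shROR2. The lowest basal array lay well above the highest luminal array, and the hairpin groups overlapped. Icam1 rose in basal against luminal cells by 2.08 ± 0.26 in shLUC (adjusted p = 0.000407) and by 2.48 ± 0.29 in shROR2 outgrowths (adjusted p = 0.000365). On the authors' values these differences were 1.07 and 1.37 and passed too. The hairpin differences were 0.33 ± 0.26 in basal cells (adjusted p = 0.588) and -0.07 ± 0.29 in luminal cells (adjusted p = 1).

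Icam1 is also made by endothelial cells and fibroblasts, and markers of both were higher in the basal cells. In shLUC outgrowths 6 of 8 endothelial and 8 of 8 fibroblast markers rose in basal against luminal cells, where 13.8% of all features did. The endothelial sum was 21.8 to 26.6 in basal against 11.3 to 12.0 in luminal shLUC cells, and the fibroblast sum 53.4 to 58.0 against 6.63 to 6.79. Leukocyte markers went the other way, with 7 of 14 lower in basal shLUC cells (13.0% of all features), among the same arrays in which Tnf and Il1b were lower. The part of these other cell types in the compartment differences was not tested.

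**Figure D3:**
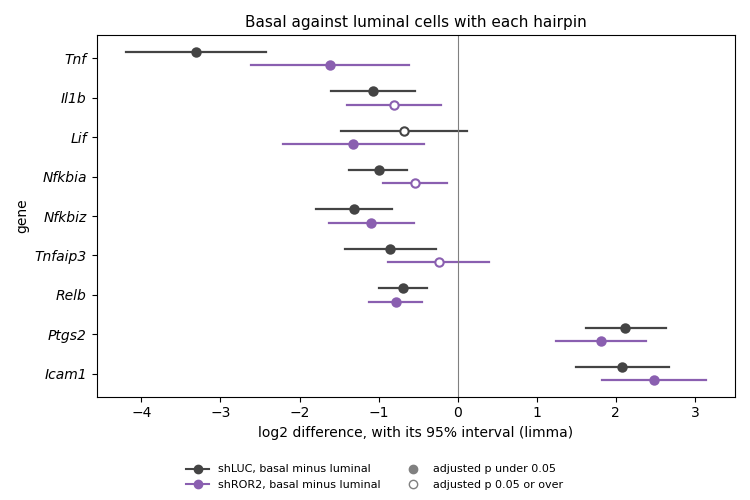
Log2 difference between basal and luminal cells for the 9 tested genes, in shLUC (dark) and shROR2 (purple) outgrowths, with 95% intervals from limma. Points are the estimates of 3 against 3 and of 3 against 2 arrays, filled where the adjusted p was below 0.05. Ptgs2 and Icam1 lie at 1.81 to 2.48 and the other 7 genes lie below 0.

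**Figure D4:**
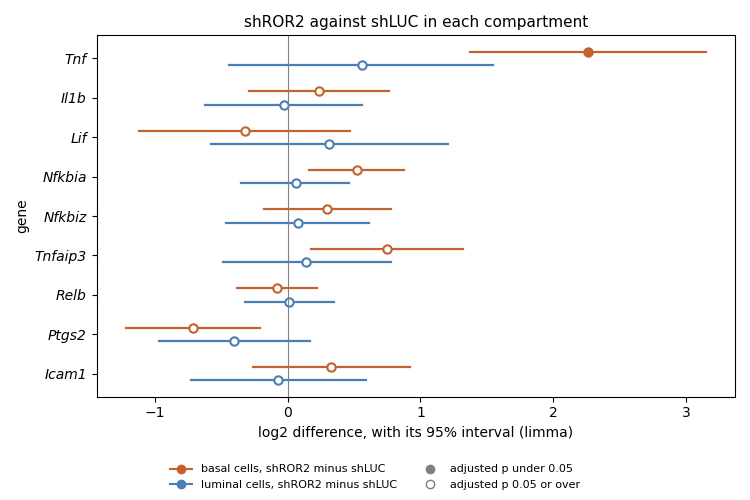
Log2 difference between shROR2 and shLUC for the 9 tested genes in basal (orange) and luminal (blue) cells, with 95% intervals from limma. Points are the estimates of 3 against 3 and of 2 against 3 arrays, and only Tnf in basal cells, at 2.26, is filled, which marks an adjusted p below 0.05. The intervals of the other 8 genes in basal cells reach from -1.22 (Ptgs2) to 1.32 (Tnfaip3).

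With the compartment means removed, Ptgs2 and Relb were negatively correlated with Nfkbia and Tnfaip3 over the 11 arrays pooled. After the mean of each compartment was taken from its arrays, Nfkbia and Tnfaip3 correlated at 0.85 over the 11 arrays and Il1b and Nfkbia at 0.77, whereas Ptgs2 correlated at -0.82 with Nfkbia and at -0.89 with Tnfaip3. Relb correlated at 0.70 with Ptgs2, at -0.51 with Nfkbia and at -0.72 with Tnfaip3. Tnf correlated at 0.61 with Nfkbia and at -0.67 with Ptgs2, and at 0.09 with Il1b. These are descriptions of 11 arrays that share their hairpin groups and slides. They pool both compartments, so they do not show the pattern within each. Basal shROR2 2 had the highest Tnfaip3, the highest basal Nfkbia and the lowest Ptgs2 and Relb signal of the basal arrays.

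Over the same values, the genes most like Tnf were Clca1 (0.96), Syne4 (0.95) and Lasp1 (0.95). Those most like Nfkbia were Pira2 (0.98), Maff (0.96) and Rps27 (0.95), those most like Tnfaip3 were Rhox8 (0.97), Tnfsf12 (0.96) and Elk1 (0.96), and those most like Ptgs2 were Rasl2-9 (0.98), Wdr63 (0.97) and Sp3 (0.96). For Il1b they were Ppp2r5a (0.92), Fbxo6 (0.92) and Foxp4 (0.91), for Lif Arsk (0.93), Dpp9 (0.93) and Prr7 (0.91), and for Nfkbiz Fubp1 (0.95), Cma1 (0.95) and Upk3a (0.94). For Relb they were Chkb (0.96), Arfip1 (0.94) and Fam114a2 (0.90), and for Icam1 Ecscr (0.96), Hspd1 (0.95) and Golga4 (0.90). Such values are the highest among 14068 genes over only 11 arrays.

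The pathway around these genes was read from a list of 87 other genes, of which 76 were tested. In basal against luminal shLUC cells 16 of the 76 were higher and 17 lower, and in shROR2 outgrowths 19 were higher and 11 lower. Of all features, 13.8% were higher and 13.0% lower in the shLUC comparison, and 10.6% higher and 12.3% lower in the shROR2 comparison. In basal cells with shROR2 against shLUC, 2 rose and 0 fell, where 0.374% and 0.574% of all features did. In luminal cells limma called 0 of 76 (4 had an unadjusted p below 0.05), and the difference between the compartments gave 0 of 76 (11 unadjusted). Among all 29429 features, 4644 had an unadjusted p below 0.05 in the basal hairpin comparison. The count was 1633 in the luminal hairpin comparison and 2443 for the difference between the compartments. The medians of the 76 were 0.18 and 0.00 in the basal and luminal hairpin comparisons and -0.12 and 0.00 in the shLUC and shROR2 compartment comparisons.

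Among receptors and the proteins that carry or block their signal, 5 of 10 were higher and 2 lower in basal against luminal shLUC cells. Over all features, 13.8% were higher and 13.0% lower. Lifr, the receptor of LIF, rose by 2.20 ± 0.12 (adjusted p = 2.03e-06) and Il6st, which encodes its partner gp130, by 1.29 ± 0.10 (adjusted p = 2.27e-05). Lif itself did not pass in that comparison. Tlr4, the receptor of bacterial endotoxin, fell by 3.16 ± 0.37 (adjusted p = 0.000291). In shROR2 outgrowths Lifr (1.88), Il6st (1.36) and Tnfrsf1a (0.84), the main TNF receptor, were higher in basal cells, among 6 higher and 1 lower of 10. The shares over all features were 10.6% higher and 12.3% lower. Between the hairpins limma called 0 of 10 in basal cells (3 unadjusted) and 0 of 10 in luminal cells (0 unadjusted). In basal cells the smallest p belonged to Tlr4 (1.12 ± 0.37, adjusted p = 0.2), Il1r1 (0.63 ± 0.22, 0.216) and Il1rn (0.99 ± 0.44, 0.314).

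In shLUC outgrowths 2 of 23 adaptors and kinases between receptor and NF-kappaB were higher in basal cells and 3 lower. The shares over all features were 13.8% higher and 13.0% lower. Traf5, an adaptor of TNF receptor family members, was up by 3.99 ± 0.33 (adjusted p = 2.68e-05). Ripk1, the kinase bound to the TNF receptor, was up by 1.24 ± 0.16 (0.000441). Irak3, a brake on interleukin-1 receptor signalling, was down at -0.89 ± 0.17 (0.00395). In shROR2 outgrowths Traf5 (2.94) and Ripk1 (1.39) were again higher, and the TNF receptor adaptor Tradd lower (-1.43 ± 0.17, adjusted p = 0.000342). Between the hairpins limma called 0 of 23 in basal cells (4 unadjusted) and 0 of 23 in luminal cells (1 unadjusted), with Tab2 the nearest in basal cells (-0.44 ± 0.10, adjusted p = 0.0905).

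The 4 other NF-kappaB subunits, Rela, Rel, Nfkb1 and Nfkb2, were called by limma in 0 of the 5 comparisons. The share of all features called was 13.8% higher and 13.0% lower in the shLUC compartment comparison, and 10.6% and 12.3% in the shROR2 one. It was 0.374% and 0.574% in the basal hairpin comparison, 0.00340% and 0% in the luminal one, and 0% for the difference between the compartments. In basal against luminal shLUC cells Nfkb1 differed by 0.17 ± 0.10, Rel by -0.39 ± 0.29 and Rela by -0.10 ± 0.12, and none of the 4 had an unadjusted p below 0.05 there or in shROR2 outgrowths. Between the hairpins in basal cells 2 of 4 did, Nfkb1 at -0.40 ± 0.10 (adjusted p = 0.115) and Rel at 0.87 ± 0.29 (adjusted p = 0.199). In luminal cells it was 1 of 4, Nfkb1 at -0.30 ± 0.12 (adjusted p = 0.817). Among all 29429 features, 4644 had such a p in the basal hairpin comparison and 1633 in the luminal one.

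Of the other inhibitors and feedback genes, 7 of 13 fell and 1 rose in basal against luminal shLUC cells. Over all features, 13.0% fell and 13.8% rose. Zfp36, which destabilises cytokine messages, fell by 1.33 ± 0.11 (adjusted p = 3.44e-05) and Zc3h12a, a nuclease with a similar role, fell by 1.66 ± 0.19 (adjusted p = 0.000246), while Dusp1, a phosphatase of stress kinases, rose by 0.95 ± 0.10 (adjusted p = 0.00013). In shROR2 outgrowths 5 fell and 1 rose, with Zfp36 at -1.08, Zc3h12a at -1.51 and Dusp1 at 1.02. The shares over all features were 12.3% lower and 10.6% higher. Between the hairpins limma called 0 of 13 in basal cells (4 unadjusted) and 0 of 13 in luminal cells (0 unadjusted). In basal cells Zfp36, which sorting can also induce, differed by 0.53 ± 0.11 (adjusted p = 0.0758) and Cyld, a deubiquitinase that restrains the pathway, by -0.67 ± 0.21 (0.181).

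Of 26 other target genes, 8 were higher and 5 lower in basal against luminal shLUC cells, beside 13.8% and 13.0% of all features. Il6 encodes interleukin-6, and its signals were 88.8, 86.9 and 73.8 for the luminal controls, 177 and 211 for luminal shROR2, 621, 536 and 644 for the basal controls, and 801, 1135 and 1014 for basal shROR2. Basal arrays were thus the highest, as for Ptgs2 and Icam1, and Il6 rose by 2.79 ± 0.19 in basal shLUC cells (adjusted p = 7.71e-06) and by 2.39 ± 0.21 in basal shROR2 cells (adjusted p = 6e-05) against luminal cells. Vcam1, an adhesion molecule, was higher by 2.25 ± 0.18 in basal shLUC cells, Ccl7, a chemokine, by 2.72 ± 0.31 in basal shROR2 cells, and Tnfaip2 lower (-2.69 ± 0.21 and -2.73 ± 0.23). Both shROR2 arrays of luminal cells had more Il6 signal than the 3 shLUC arrays, a difference of 1.19 ± 0.21 that did not pass (adjusted p = 0.22).

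The 2 pathway genes that rose in basal cells with shROR2 were both target genes. Bcl2a1d belongs to a family of survival genes with near-identical copies, which its probe may not tell apart. Its signals were 70.1, 100.2 and 57.8 for the basal controls, 223, 342 and 208 for basal shROR2, 267, 306 and 312 for the luminal controls, and 455 and 468 for luminal shROR2, the same order of group means as for Tnf, with 1 basal shROR2 array above the luminal controls. It rose by 1.84 ± 0.21 (adjusted p = 0.0113), a call lost without basal shLUC 1 (1.83, adjusted p = 0.0583) and with only the groups compared (adjusted p = 0.186).

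Irf1 encodes a transcription factor of the interferon response, and its signals were 455, 557 and 437 for the basal controls and 884, 751 and 642 for basal shROR2, against 564, 573 and 579 for the luminal controls and 783 and 629.6 for luminal shROR2. Its difference in basal cells, 0.73 ± 0.13, passed with an adjusted p of 0.047. Leaving out 1 array ended the Irf1 call in 9 of 11 cases, with adjusted p-values of 0.0952, 0.0909 and 0.088 without luminal shLUC 1, 2 and 3, of 0.0754 and 0.0761 without luminal shROR2 1 and 2, of 0.149, 0.128 and 0.142 without basal shLUC 1, 2 and 3, and of 0.0581 without basal shROR2 2. It was 0.0734 with the slide as a block, 0.0929 with no filter, 0.0977 with the replicate number as a block, 0.289 with only the groups compared and 0.137 with array weights.

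**Figure D5:**
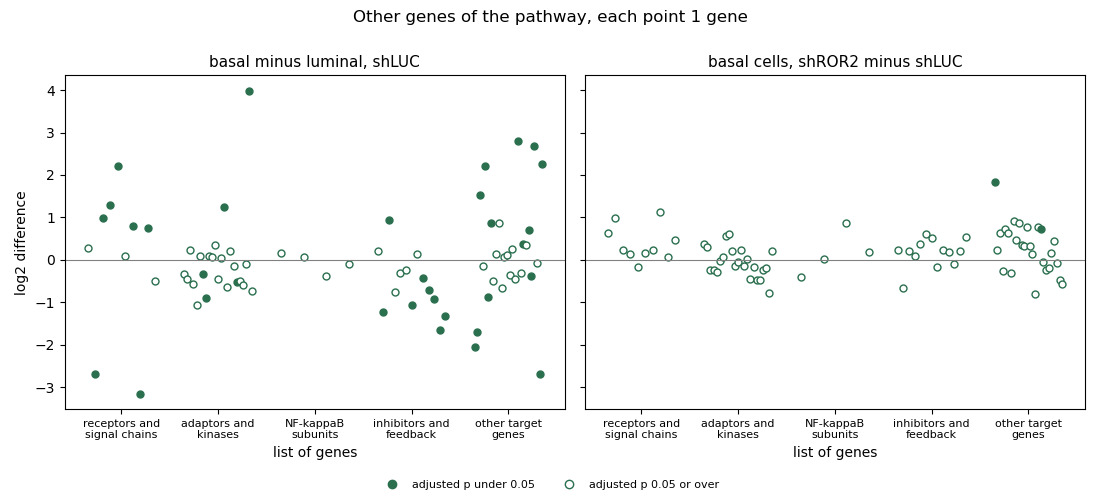
Log2 difference of the 76 other pathway genes, by list, between basal and luminal cells in shLUC outgrowths (left) and between shROR2 and shLUC in basal cells (right). Each point is a gene, filled where the adjusted p was below 0.05. On the left 33 genes are filled, from -3.16 (Tlr4) to 3.99 (Traf5), and on the right Bcl2a1d at 1.84 and Irf1 at 0.73.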

How the data were processed

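Each array is a one-colour Agilent hybridisation of amplified, Cy3-labelled RNA. Per the file headers, the intensity values used here were background-subtracted and detrended within each array by Agilent Feature Extraction 11.0.1.1, with no normalization between arrays. The authors' value table holds intensity values made with a normalization that no source used here describes, and it served as an alternative. The 55681 probes (62976 spots an array, 0 saturated) were named through RefSeq accessions with a table of assembly GRCm38.p6, which gave 26582 a symbol, and spots of a probe were averaged. The tests used log2 of the deposited intensities minus the 75th percentile of each array. Kept were probes well above background on at least 3 of 11 arrays (33628). For a named gene the probe with the highest mean was used, and probes without a symbol each stayed as a feature. The 29429 features were thus 14068 named genes and 15361 unnamed probes. Between 52.8% and 59.5% of probes were well above background on an array, and the number of arrays limits the precision. The 4 group means were fitted with limma 3.58.1 in R 4.3.3 (lmFit, eBayes, prior degrees of freedom 1.85, 2-sided p adjusted by Benjamini-Hochberg within a comparison, called below 0.05).

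The fit was tested on simulated data with the same spread in every group, whereas the measured basal shROR2 arrays were more spread. The members, lists and tests were chosen with earlier results of these data known. Of the other pathway genes, the text names at most 3 of each list with the smallest p in a comparison, and of genes most like a member the 3 with the highest correlation. Promoters are printed for at most 4 members, as given in the text. Marker lists of luminal, basal, leukocyte, endothelial and fibroblast cells and of genes that sorting can induce were summed on the scaled signal. Alternatives changed the background correction (normexp, offset 50, on the median signals, which are the raw signals in the files used here), the scaling, the filter, the slide or replicate block, the arrays fitted and their weights. Figures were drawn with matplotlib in Python.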

Additional observations from a re-analysis of the deposited data

How the results depend on the processing

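The basal hairpin comparison called 1 of 9 genes, Tnf. It called 0 with no filter on dim probes, with the slide as a block, with the replicate block, with only the groups compared and with array weights, and 0 to 1 when 1 array was left out. Over all features the calls of this comparison went from 279 to 130, 129, 37, 0 and 32 in those fits. The count in basal against luminal shROR2 cells fell from 6 to 2 with only the groups compared, where calls over all features fell from 6728 to 2822, and ranged from 3 to 7 when 1 array was left out, with 3 without luminal shROR2 replicate 1. Of the other pathway genes, the basal hairpin comparison called 2, but 6 with normexp and with the authors' table, 1 with no filter, the slide as a block, the replicate block and array weights, 0 with only the groups compared, and 0 to 6 without 1 array (0 without basal shLUC 1, 6 without basal shROR2 1). Array weights called 1 pathway gene between the hairpins in luminal cells, and only the groups compared called 18 in place of 30 in basal against luminal shROR2 cells. The count of members in basal against luminal shLUC cells was 7 to 9 in all fits. Only the groups compared gave no value for the difference between compartments. Small differences that passed in no fit changed sign: in luminal cells Il1b was 0.06 with the replicate block, Nfkbiz -0.02 with normexp and with the authors' table, Relb -0.01 with normexp, quantile scaling and the replicate block and -0.04 with the authors' table, and Icam1 0.01 with the slide as a block, while the Relb difference between compartments was 0.00 with the authors' table. Leaving out 1 array gave luminal ranges of -0.15 to 0.04 for Il1b, -0.05 to 0.16 for Nfkbia, 0.00 to 0.16 for Nfkbiz, -0.08 to 0.37 for Tnfaip3, -0.07 to 0.09 for Relb and -0.31 to 0.18 for Icam1, basal ranges of -0.52 to 0.07 for Lif and -0.16 to 0.02 for Relb, and -0.18 to 0.00 for the Relb difference between compartments. Deviations from the group means correlated at -0.04 to 0.04 over 15 pairs with the same replicate number and at -0.07 to 0.05 over 30 pairs with different numbers. The means were of 2 or 3 arrays, so these values cannot decide whether arrays with the same number share an animal. Depth of signal limits Tnf in basal shLUC cells, well above background on 1 of 3 arrays, and Il1a throughout. The causes of these shifts were not tested.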
